A study of Canis lupus familiaris with 12 samples.

Results

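The genes described here are 9 transcription factors and targets of the integrated stress response: ATF4, ATF5, ATF3, DDIT3, TRIB3, CHAC1, PPP1R15A, SESN2 and DDIT4. They were taken by symbol from deposited tables of 29822 canine genes each, and every one of the 9 symbols matched 1 row. The tables come from messenger RNA of peripheral blood mononuclear cells (PBMCs, the lymphocytes and monocytes of blood) of healthy male beagles kept as blood donors, isolated on a density gradient and cultured for 24 h. The 4 groups of 3 libraries were compared. ConA+ALA cells received both concanavalin A and 5-aminolevulinic acid. ConA cells received concanavalin A alone at 0.5 µg/ml, a plant lectin that activates T cells. ALA cells received 5-aminolevulinic acid alone at 1.0 mM, the precursor from which cells build heme. Untreated cells received neither. All 4 groups shared the culture medium with serum, antibiotics and 2-mercaptoethanol, a reducing agent. The libraries of each group are numbered 1 to 3, but no label ties a number to a dog. The p-values therefore reflect variation among these libraries, and part or all of it may be technical.

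The integrated stress response begins when a kinase phosphorylates the initiation factor eIF2. The kinases are PERK (EIF2AK3) for unfolded protein in the endoplasmic reticulum, GCN2 (EIF2AK4) for lack of amino acids, PKR (EIF2AK2) for double-stranded RNA, and HRI (EIF2AK1) for lack of heme and for mitochondrial stress. Global translation then slows while the ATF4 messenger is translated more, and the ATF4 protein switches on genes for amino acid supply, for feedback on eIF2 and, under lasting stress, for cell death. Much of ATF4's control is translational, which RNA levels do not show, and in activated T cells ATF4 is also known to serve amino acid supply for growth.

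Levels differed greatly between the 9 genes. In TPM, the deposited measure that corrects for transcript length, ATF4 ranged from 837 to 2561 over the 12 libraries with a median of 1639, and by mean TPM it ranked 94 of all genes. DDIT3, DDIT4 and PPP1R15A had medians of 26.2, 26.0 and 20.2 TPM. SESN2 (7.65), ATF3 (7.25), CHAC1 (4.65) and TRIB3 (2.81) were lower, and ATF5 was lowest with a median of 0.828 TPM from 2 to 23 exon reads per library. All 9 passed the filter on low counts. In the authors' gene model (CanFam3.1), ATF4 lies on chromosome 10 from 25528874 to 25530993 on the minus strand, and DDIT3 lies on the same chromosome from 1606693 to 1611303, also minus. ATF3 lies on chromosome 7 from 10782064 to 10794163 (plus), CHAC1 on chromosome 30 from 8078168 to 8080089 (plus) and TRIB3 on chromosome 24 from 20451001 to 20457510 (minus). ATF5 (106632353 to 106636502) and PPP1R15A (107486438 to 107489222) lie on chromosome 1, and SESN2 on chromosome 2 from 72151868 to 72168492, all on the minus strand. DDIT3 overlaps the tRNA synthetase gene MARS on the opposite strand by 58 bases. Whether counting used strand is not stated, so reads in that overlap cannot be told apart. The other 8 genes overlap no annotated neighbour. For each of the 9 genes the deposited unique exon reads made up 100% of total exon reads, but what unique means there is not stated. DDIT4 is annotated over 47940 bases with 6 exons (chromosome 4, 22916096 to 22964035, plus strand). This span is much longer than that of human DDIT4, and whether part of its exons belongs to another transcript was not tested, so every DDIT4 value is for this gene model as deposited.

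**Figure D1:**
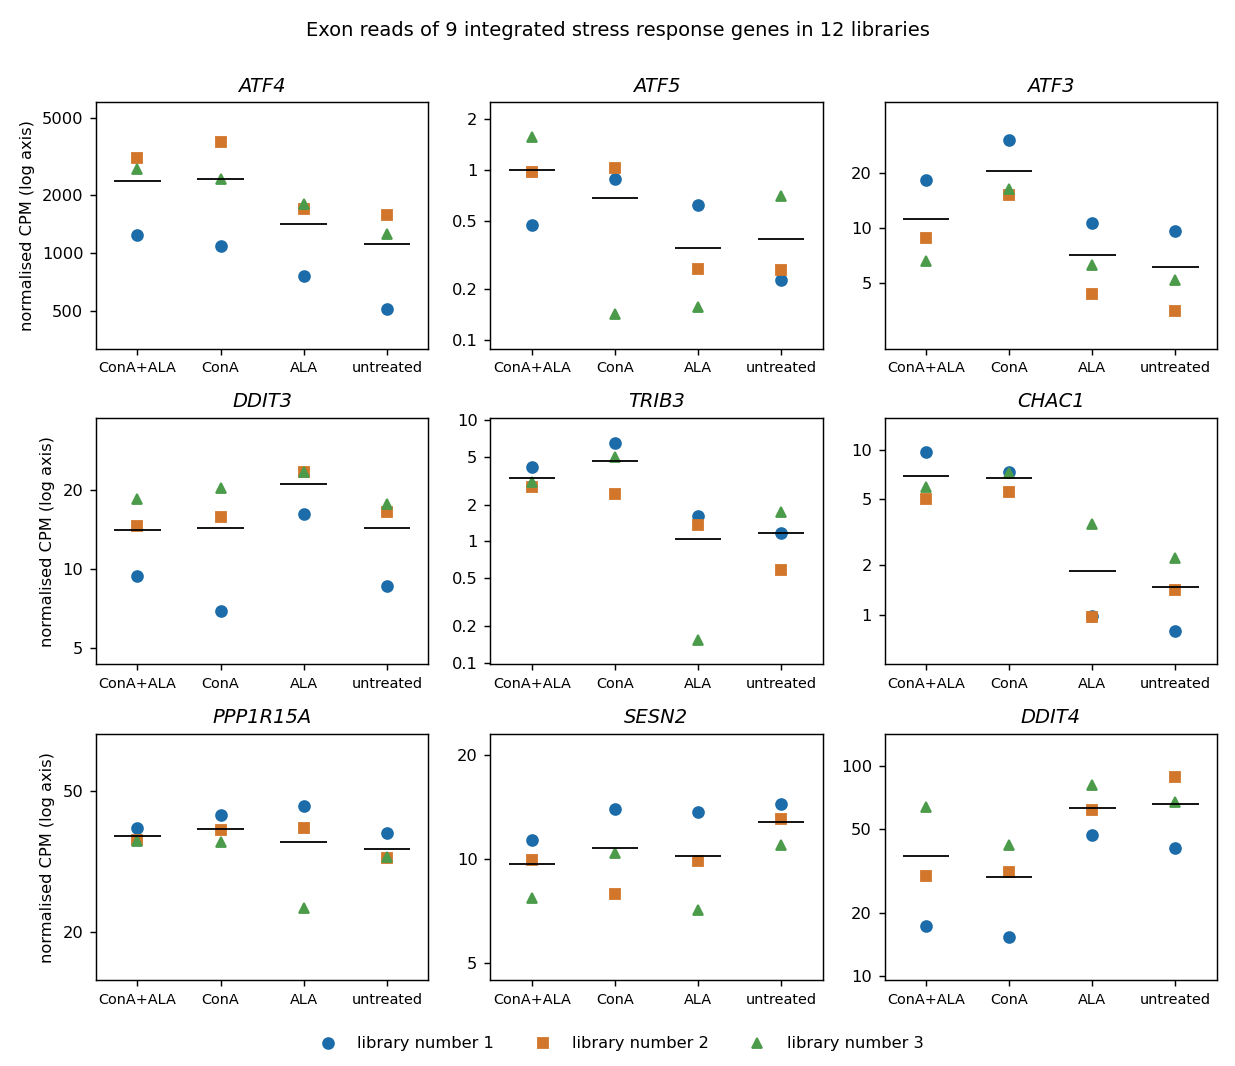
Normalised CPM (exon reads scaled to a common library size, log axis) of the 9 genes in the ConA+ALA, ConA, ALA and untreated groups. Each point is 1 library, its symbol gives the library number, and the bar is the mean of 3. CHAC1 and TRIB3 sit higher in every library with ConA than in every library without it, while number 1 is lowest in every group for ATF4, DDIT3 and DDIT4.

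The libraries held 13390692 to 21517099 exon reads. Number 1 stood apart in all 4 groups, with a mitochondrial share of 3.59 to 4.82%, against 11.8 to 23.3% in the 8 libraries of numbers 2 and 3. Its share of junction reads was 52.4 to 54.2%, against 36.1 to 43.4% for numbers 2 and 3. Deviations from the group means were shared within a number, so the fit was also made with the number as a block, and its values stand beside a result where they change a call. Tests are edgeR's quasi-likelihood test over 13358 genes, p-values are adjusted by Benjamini-Hochberg over all of them, and a gene is called at an adjusted p under 0.05. Fold changes are log2 with their standard error (SE).

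To ask how activation by the lectin moved these genes, ConA cells were compared with untreated cells. CHAC1 and ATF3 rose, by about 4.54-fold and 3.38-fold, and no member was called as lower. These 2 of 9 are 22.2% of the members, against 18.5% of all genes tested. With the library number as a block ATF4 and TRIB3 were called higher and DDIT4 lower as well, 5 of 9 (55.6%) against 42.5% of all genes. Read against those shares, neither count is a result about the members as a set. The median log2 fold change of the 9 genes was 0.80, the value of the sparsely read ATF5, beside -0.05 over all genes. It was 0.15 over the 7 members with a mean of at least 50 reads. With all libraries of 1 number left out it ran from 0.25 to 1.22, so the median is poorly determined.

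ATF4, the central factor of the response, had 1079, 3790 and 2425 normalised CPM in ConA libraries 1, 2 and 3, against 507, 1578 and 1252 in untreated libraries 1, 2 and 3. It was higher with ConA within every number, but number 1 was low in both groups and the groups overlapped. The log2 difference within numbers was 1.09, 1.26 and 0.95. The fold change of 1.13 ± 0.55 was not called (edgeR unadjusted p = 0.0629, adjusted p = 0.181). Its normal 95% interval of 0.05 to 2.21 is too narrow to match that unadjusted p. With the block the fold change was 1.11 ± 0.14 and was called (edgeR adjusted p = 1.63e-05). It was also called without the libraries of number 1 (1.14, adjusted p = 0.00878) and on total gene reads.

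ATF3, a repressor and activator that ATF4 induces and that other stress and inflammatory signals induce too, had 30.5, 15.1 and 16.3 CPM in ConA libraries, against 9.63, 3.49 and 5.18 in untreated libraries. Every ConA library was above every untreated one. The fold change was 1.76 ± 0.51 (edgeR adjusted p = 0.0316). The call was lost without ConA 1 (adjusted p = 0.109), untreated 2 (0.111) or untreated 3 (0.0905), without all libraries of number 2 (0.197) or of number 3 (0.163), on total gene reads, and when libraries were scaled by total exon reads alone (1.5 ± 0.73, adjusted p = 0.21). With the block it was 1.80 ± 0.23 and stayed called without any one number.

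DDIT3 encodes CHOP, the factor linked to cell death under lasting stress. It had 6.93, 15.9 and 20.4 CPM in ConA libraries, against 8.64, 16.6 and 17.8 in untreated libraries, with a fold change of 0.00 ± 0.41 (95% interval -0.80 to 0.80) that was -0.29 ± 0.33 when scaled by total exon reads. ATF5, a relative of ATF4 that is also translated under stress, had 0.142 to 1.03 CPM in ConA libraries and 0.225 to 0.698 in untreated libraries. So few reads leave its fold change of 0.80 ± 0.89 poorly determined, with an interval from -0.95 to 2.55.

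The targets CHAC1 and TRIB3 had the largest fold changes of the 9. CHAC1, an enzyme that degrades glutathione, had 7.32, 5.55 and 7.25 CPM in ConA libraries, against 0.81, 1.42 and 2.21 in untreated libraries. The groups did not overlap, and the fold change was 2.18 ± 0.56 (edgeR adjusted p = 0.0192). This call was lost without untreated 1 (adjusted p = 0.071) or untreated 2 (0.0612), and without number 1 (0.0635) or number 2 (0.158). TRIB3, a pseudokinase that restrains ATF4 and CHOP, had 6.51, 2.46 and 4.97 CPM in ConA libraries, against 1.17, 0.582 and 1.75 in untreated libraries. These groups did not overlap either. Its fold change of 1.99 ± 0.69 had an adjusted p of 0.0639 in edgeR, and DESeq2, limma-voom and the edgeR fit without ALA 3 (0.0219) called it. With the block it was 1.95 ± 0.58 (adjusted p = 0.0135), a call lost without number 1 (0.158) or number 2 (0.0572).

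Feedback and growth were represented by 3 members, none of them called. PPP1R15A (GADD34), the subunit that directs a phosphatase to eIF2 and so ends the response, had 35.8 to 42.7 CPM in ConA libraries and 32.3 to 38 in untreated libraries, with a fold change of 0.19 ± 0.22 that turned to -0.08 ± 0.41 when libraries were scaled by total exon reads. SESN2, a leucine sensor that restrains the growth kinase mTORC1, had 7.93 to 14 CPM in ConA libraries and 11 to 14.4 in untreated libraries (fold change -0.25 ± 0.30). DDIT4 (REDD1), another brake on mTORC1, had 15.3, 31.3 and 42.1 CPM in ConA libraries, against 40.6, 88.8 and 67.7 in untreated libraries. DDIT4 was lower with ConA within every number, with log2 differences of -1.40, -1.5 and -0.68. The fold change of -1.15 ± 0.48 was not called (adjusted p = 0.119), and it was called with the block (-1.23 ± 0.24, adjusted p = 0.00132), on total gene reads, and when scaled by total exon reads alone (-1.44 ± 0.38, adjusted p = 0.0301). That scaling, added after the data were seen, moved the median of all genes to -0.31.

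In CPM the groups of 3 members (ATF3, TRIB3 and CHAC1, 33.3%) did not overlap between ConA and untreated cells, beside 35.3% of all genes. On the TPM scale CHAC1 stayed apart, but ATF3 overlapped (8.51 in ConA 2, 13.2 in untreated 1), as did TRIB3 (2.20 and 2.56). DDIT4 was apart on that scale, with at most 15.8 in ConA and at least 30.3 in untreated libraries. The share of all genes was not computed in TPM, so these separations are a description only. Of the members 5 (ATF3, ATF4, TRIB3, CHAC1 and PPP1R15A, 55.6%) were higher in all 3 numbers and 2 (DDIT4 and SESN2, 22.2%) lower in all 3, beside 30.6% and 34.6% of all genes.

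**Figure D2:**
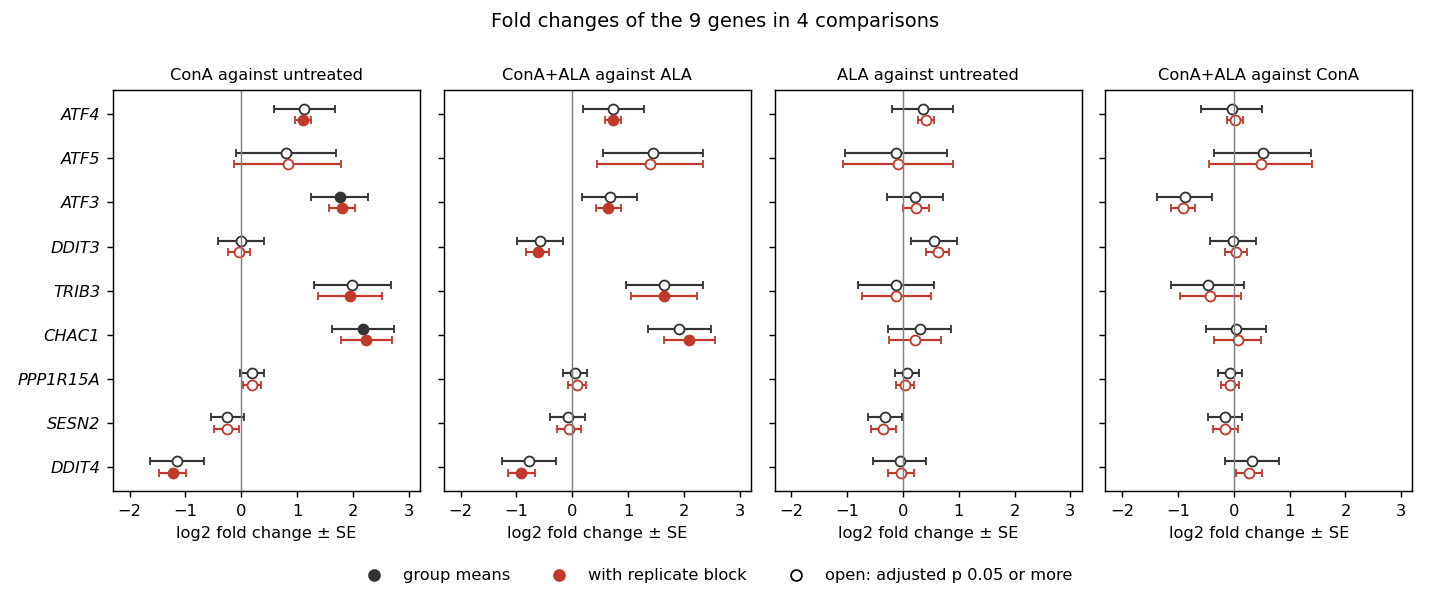
Log2 fold changes with SE of the 9 genes in 4 comparisons, for the fit on group means (black) and with the library number as a block (red). Filled points are called at an adjusted p under 0.05. ATF4 is at 1.13 ± 0.55 in the first fit and 1.11 ± 0.14 with the block in ConA against untreated cells, and in both comparisons of ALA every point is open.

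Other genes of the pathway were examined as 5 lists. In ConA against untreated cells 9.93% of all genes were called higher and 8.57% lower, and 21.3% and 21.2% with the block. Of 13 aminoacyl-tRNA synthetase genes (with the tRNA exporter XPOT), which ATF4 is known to induce, 11 rose and none fell, with a median of 1.07, and 13 rose with the block. SARS1 stood at 1.33 ± 0.19 (edgeR adjusted p = 0.000961), MARS1 at 1.25 ± 0.20 (0.00152) and CARS1 at 1.29 ± 0.21 (0.00192). Of 15 ATF4 targets in amino acid synthesis and transport 9 rose and none fell, with a median of 1.08, and with the block 11 rose and 1 fell, the amino acid transporter gene SLC38A2 (-0.49 ± 0.15, edgeR adjusted p = 0.0178). PYCR1, which makes proline, rose by 3.34 ± 0.40 (adjusted p = 0.000468), the mitochondrial serine enzyme SHMT2 by 2.65 ± 0.39 (0.00114), and asparagine synthetase ASNS by 1.93 ± 0.34 (0.00264), with 11.7 ± 2.29 CPM in ConA cells and 3.05 ± 0.563 in untreated cells (SD, n = 3 each). These enzymes and synthetases also serve growing cells in general.

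The start of the pathway changed less evenly. Of 17 genes for eIF2 kinases and translation machinery 5 rose and 1 fell, with a median of 0.39, and with the block 7 rose and 2 fell. EIF2S1, the eIF2 subunit that is phosphorylated, rose by 1.80 ± 0.23 (edgeR adjusted p = 0.000592). EIF2B3 (1.26 ± 0.19, 0.0012) and EIF2B1 (1.02 ± 0.20, 0.00427), subunits of the exchange factor for eIF2, rose too. The gene that fell without the block was the kinase gene EIF2AK2, at -1.69 ± 0.33 (adjusted p = 0.00488). With the block the PERK gene EIF2AK3 fell as well (-0.48 ± 0.17, adjusted p = 0.0344). SLC38A2 and EIF2AK3 are named after their values were seen. EIF2AK1, the heme-regulated kinase, had 54.5 ± 6.11 CPM in ConA cells and 55.6 ± 4.96 in untreated cells (SD, n = 3 each), a fold change of -0.03 ± 0.16. Of 12 partner factors and other stress-induced genes 2 rose, with a median of 0.62 and 7 higher and 1 lower with the block. They were the bZIP factor JDP2 (1.98 ± 0.34, adjusted p = 0.00238) and the cysteine-making enzyme CTH (2.53 ± 0.45, 0.00311), while the cell death gene BCL2L11 was at 1.18 ± 0.39 (0.0524). FGF21, a secreted hormone of the same list, had 0, 14 and 9 reads in ConA libraries and 0 reads in every untreated library, at least 6.85-fold higher against a floor of 3 reads over the group. It was called with the block (adjusted p = 0.0302) and not without it (0.0533).

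The other branches of the unfolded protein response were covered by 20 genes under ATF6 and XBP1, of which 2 rose and none fell, with a median of 0.36. They were the chaperone partner DNAJB11 (1.14 ± 0.29, edgeR adjusted p = 0.0181) and the secreted factor MANF (1.25 ± 0.39, 0.0442). The chaperone HSPA5 was at 0.63 ± 0.29 (0.152), and with the block at 0.63 ± 0.14 (0.00195), where 9 of the 20 genes rose.

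**Figure D3:**
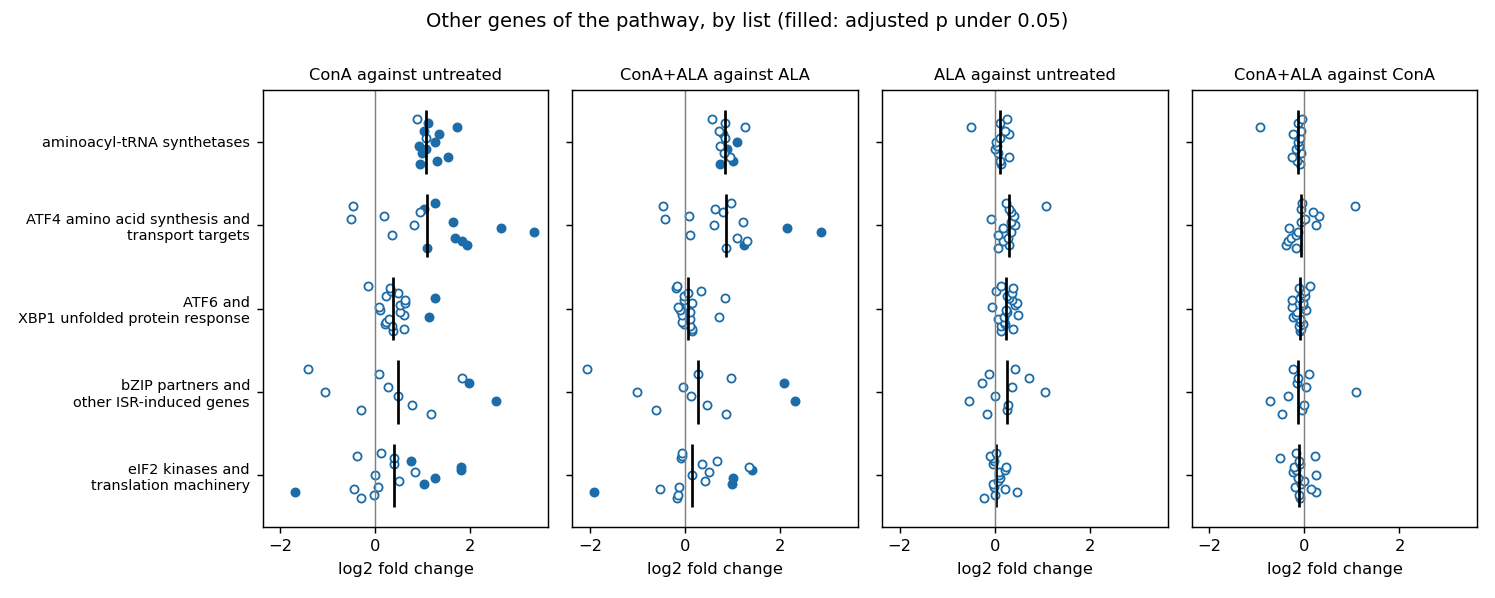
Log2 fold changes of other pathway genes by list in 4 comparisons, from the fit on group means. Each point is a gene, filled where it is called, and the bar is the list's median over the genes drawn. FGF21, with 0 reads in a group, is not drawn. Medians of the synthetase and amino acid lists are 1.07 and 1.08 in ConA against untreated cells, and no point is filled in either comparison of ALA.

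Marker genes of blood cell types differed between these groups as well. The summed level of 7 monocyte markers was 70.2 to 265 CPM in ConA libraries and 345 to 788 in untreated libraries, with 2 of 7 called lower and 7 of 7 with the block. Of 5 tested neutrophil markers 4 fell, with 6 markers summing to 161 to 337 CPM in ConA libraries and 873 to 1000 in untreated libraries. CXCR2, the other neutrophil marker in the tables, was under the filter and at 0 reads in every library of the ConA+ALA, ConA and ALA groups. T cell markers summed to 701 to 1175 CPM in ConA libraries and 1047 to 1638 in untreated libraries, with 1 of 8 higher and 3 lower (1 and 5 with the block). Of 6 B cell markers 2 fell (4 with the block), and of 7 killer cell markers 1 rose and 2 fell (2 and 3 with the block). Of 4 red cell markers none was called without the block and 3 fell with it, and neither fit called any of 2 platelet markers. In bulk RNA fewer cells of a type and less RNA per cell cannot be told apart, and the part of cell mixture in the results above was not tested.

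The same question was asked in the presence of ALA by comparing ConA+ALA cells with ALA cells, which shares no library with the comparison above. These comparisons are still not independent, since same-numbered libraries deviated together and both came from the same fit over all 12 libraries. No member was called (edgeR, 0 of 9, beside 8.12% of all genes), and 2 had an unadjusted p under 0.05. DESeq2 and limma-voom called 1 each, CHAC1. With the block 6 of 9 (66.7%) were called, beside 30.1% of all genes. The median of the 9 genes was 0.67, and that of all genes -0.07. Over the 7 members with a mean of at least 50 reads the median was 0.03. That of the 9 genes was 0.56 to 0.67 with 1 number left out. With 1 library left out it ran from 0.12 (without ConA+ALA 1) to 0.69 (without untreated 2), so this median too is poorly determined.

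CHAC1 had 9.67, 5.01 and 5.97 CPM in ConA+ALA libraries, against 0.993, 0.982 and 3.57 in ALA libraries. The groups did not overlap, and the ALA library of number 3 was the highest of its group. The fold change was 1.92 ± 0.56 (edgeR adjusted p = 0.0553) and was called without ALA 3 (2.80, 0.0117) or untreated 1 (0.0489). With the block it was 2.10 ± 0.46 (0.003), a call lost without number 1 (0.0684). TRIB3 had 4.10, 2.84 and 3.12 CPM in ConA+ALA libraries, against 1.61, 1.37 and 0.155 in ALA libraries, and here too the groups did not overlap. Its fold change was 1.65 ± 0.69 (adjusted p = 0.173), and 1.64 ± 0.59 with the block (0.0467), a call lost when any one number was left out.

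ATF4 had 1237, 3126 and 2741 CPM in ConA+ALA libraries, against 758, 1695 and 1795 in ALA libraries. It was higher within every number, by 0.71, 0.88 and 0.61 on the log2 scale. The fold change was 0.74 ± 0.55 (edgeR adjusted p = 0.468), and 0.73 ± 0.14 with the block (0.00107), which held without any one number. ATF3 had 18.2, 8.82 and 6.62 CPM in ConA+ALA libraries, against 10.6, 4.32 and 6.29 in ALA libraries. With overlapping groups its fold change was 0.67 ± 0.50, and it was called with the block (0.65 ± 0.23, adjusted p = 0.041) but not without number 1 (0.287) or number 2 (0.234).

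DDIT3 had 9.41, 14.6 and 18.5 CPM in ConA+ALA libraries, against 16.2, 23.6 and 23.6 in ALA libraries. It was lower within every number, with a fold change of -0.58 ± 0.41, and -0.62 ± 0.20 with the block (edgeR adjusted p = 0.0284), not called without number 1 (0.165) or number 2 (0.203). DDIT4 had 17.4, 30.1 and 63.9 CPM in ConA+ALA libraries, against 46.9, 61.5 and 80.9 in ALA libraries. It too was lower within every number, at -0.77 ± 0.48, and -0.91 ± 0.24 with the block (0.0121), not called without number 1 (0.24) or number 2 (0.0777). SESN2 (-0.08 ± 0.31) and PPP1R15A (0.05 ± 0.22) had fold changes near 0, and ATF5 was at 1.45 ± 0.90 from few reads.

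Groups did not overlap for 2 members (TRIB3 and CHAC1, 22.2%), beside 28.3% of all genes. Of the members 4 (44.4%) were higher and 2 (22.2%) lower in all 3 numbers, beside 28.2% and 32.7% of all genes.

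Among the other pathway genes 5.09% of all genes were called higher and 3.03% lower as background, and 15.8% and 14.3% with the block. The synthetase list had 5 of 13 higher (13 with the block), with a median of 0.84 and MARS1 at 1.09 ± 0.20 (edgeR adjusted p = 0.00734). The amino acid list had 3 of 15 higher (8 with the block), with a median of 0.86. These were PYCR1 (2.87 ± 0.40, 0.00227), SHMT2 (2.15 ± 0.38, 0.00702) and ASNS (1.24 ± 0.33, 0.0402). Of the eIF2 list 3 of 17 rose and 1 fell (7 and 2 with the block), EIF2S1 at 1.41 ± 0.23 (0.00414) and EIF2AK2 at -1.91 ± 0.33 (0.00644) among them. JDP2 (2.08 ± 0.34, 0.00458) and CTH (2.32 ± 0.46, 0.0103) rose among the 12 partner factors and other stress-induced genes, where with the block BCL2L11 also rose (0.88 ± 0.22, 0.00658) and GADD45A fell (-1.03 ± 0.18, 0.000558). None of the 20 ATF6 and XBP1 genes was called, with a median of 0.06, and with the block MANF (0.87 ± 0.16, 0.000687) and DNAJB11 (0.73 ± 0.17, 0.0048) rose. Monocyte markers summed to 108 to 335 CPM in ConA+ALA libraries and 278 to 1360 in ALA libraries, with none of 7 called without the block and 5 lower with it, and the part of this in the values above was not tested.

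ALA alone was compared with untreated cells. No member was called by edgeR, DESeq2 or limma-voom, and none had an unadjusted p under 0.05. Of all genes 0.0% were called, with 155 at an unadjusted p under 0.05. With the block 0 of 9 were called, beside 0.0449% of all genes, and 2 members had an unadjusted p under 0.05. These were DDIT3 and ATF4.

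DDIT3 had 16.2, 23.6 and 23.6 CPM in ALA libraries, against 8.64, 16.6 and 17.8 in untreated libraries. It was higher within every number, by 0.90, 0.51 and 0.40 on the log2 scale, and the groups overlapped in CPM through number 1. On the TPM scale ALA libraries held 42.5, 41.4 and 34.1 and untreated libraries 23.7, 29.6 and 29.5, with no overlap. No share of all genes was computed on that scale, so this separation is a description only. The fold change was 0.56 ± 0.41 (95% interval -0.24 to 1.36, edgeR adjusted p = 1), and 0.62 ± 0.20 with the block (unadjusted p = 0.00712, adjusted p = 0.548). ATF4 was higher in ALA libraries than in untreated libraries by 0.58, 0.10 and 0.52 within numbers, with a fold change of 0.35 ± 0.54, and 0.41 ± 0.14 with the block (unadjusted p = 0.00954, adjusted p = 0.596).

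The remaining members gave intervals that include 0 in both fits. ATF3 (0.21 ± 0.50), CHAC1 (0.30 ± 0.56), TRIB3 (-0.13 ± 0.68), PPP1R15A (0.07 ± 0.22), SESN2 (-0.32 ± 0.30), DDIT4 (-0.06 ± 0.47) and ATF5 (-0.13 ± 0.91) lay on both sides of 0. TRIB3 rested on 2 reads in ALA library 3. Higher in all 3 numbers were 3 members (ATF3, ATF4 and DDIT3, 33.3%), and SESN2 (11.1%) was lower, beside 14.8% and 16.2% of all genes. In CPM no member's groups were apart, beside 4.27% of all genes. The kinase gene EIF2AK1 had 55.7 ± 3.91 CPM in ALA cells and 55.6 ± 4.96 in untreated cells (SD, n = 3 each), a fold change of 0.00 ± 0.16. None of the 5 lists held a called gene, and with the block 1 was called, GADD45A, a growth arrest gene that ATF4 and p53 induce, at 1.19 ± 0.18 (adjusted p = 0.0281). It had 179 ± 45.1 CPM in ALA cells and 86.9 ± 48.3 in untreated cells (SD, n = 3 each). The cystine transporter gene SLC7A11 was at 1.07 ± 0.43 and was not called in either fit.

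ALA added to the lectin was examined by setting ConA+ALA cells against ConA cells, whose libraries also enter the first comparison. Again edgeR, DESeq2 and limma-voom called no member, and none reached an unadjusted p under 0.05. The share of all genes called was 0.0%, with 445 at an unadjusted p under 0.05. With the block the counts were 0 of 9 and 0.554% of all genes, with 1 member at an unadjusted p under 0.05, ATF3. It had 18.2, 8.82 and 6.62 CPM in ConA+ALA libraries, against 30.5, 15.1 and 16.3 in ConA libraries. ATF3 was lower within every number, with log2 differences of -0.74, -0.77 and -1.29, while the groups overlapped through number 1. Its fold change was -0.88 ± 0.49 (edgeR unadjusted p = 0.101, adjusted p = 1), and -0.91 ± 0.22 with the block (unadjusted p = 0.000886, adjusted p = 0.088).

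The other 8 members had intervals that include 0. CHAC1 averaged 6.88 ± 2.46 CPM in ConA+ALA cells and 6.70 ± 1.00 in ConA cells (SD, n = 3 each), with a fold change of 0.04 ± 0.53. ATF4 (-0.04 ± 0.54), DDIT3 (-0.02 ± 0.41) and PPP1R15A (-0.07 ± 0.22) had fold changes near 0, with the narrowest interval for PPP1R15A, -0.51 to 0.37. TRIB3 (-0.47 ± 0.66), SESN2 (-0.16 ± 0.31), DDIT4 (0.33 ± 0.48) and ATF5 (0.52 ± 0.87) had wider ones. ATF3 alone (11.1%) was lower in all 3 numbers and no member higher in all 3, beside 18.6% and 16.2% of all genes, and no groups were apart, beside 7.74% of all genes. None of the 5 lists held a called gene, and with the block GADD45A was called again (1.15 ± 0.18, adjusted p = 0.011). Neutrophil markers summed to 884 to 2717 CPM in ConA+ALA libraries and 161 to 337 in ConA libraries, and none of the 7 marker lists held a called gene in this comparison without the block. With it the neutrophil marker S100A8 and the monocyte marker FCGR1A were called higher.

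Whether the difference made by ALA itself depended on ConA was tested as an interaction. No member was called with or without the block, beside 0.0% of all genes in both fits (222 at an unadjusted p under 0.05 without it), and no member had an unadjusted p under 0.05 without the block. The largest was ATF3, at -1.09 ± 0.70 (edgeR unadjusted p = 0.147, adjusted p = 1), and -1.14 ± 0.32 with the block (unadjusted p = 0.0027, adjusted p = 0.462). DDIT3 was at -0.58 ± 0.58, and the other 7 lay between -0.39 and 0.65.

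Reads in introns come in part from RNA not yet spliced, so the fold changes of exon and intron reads were set side by side. In ConA against untreated cells no member was called on intron reads (edgeR, with 3 at an unadjusted p under 0.05). ATF3, with up to 81.8% of its gene reads in introns, had an intron fold change of 1.66 ± 0.61 beside 1.76 ± 0.51 in exons. CHAC1 (1.84 ± 0.71), TRIB3 (1.37 ± 0.67) and DDIT4 (-0.74 ± 0.29) had intron fold changes of the same sign as their exons. ATF4, with 2.43 to 16.8% of reads in introns, was at 0.27 ± 0.55 in introns and 1.13 ± 0.55 in exons. The difference between exon and intron fold changes was not tested.

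**Figure D4:**
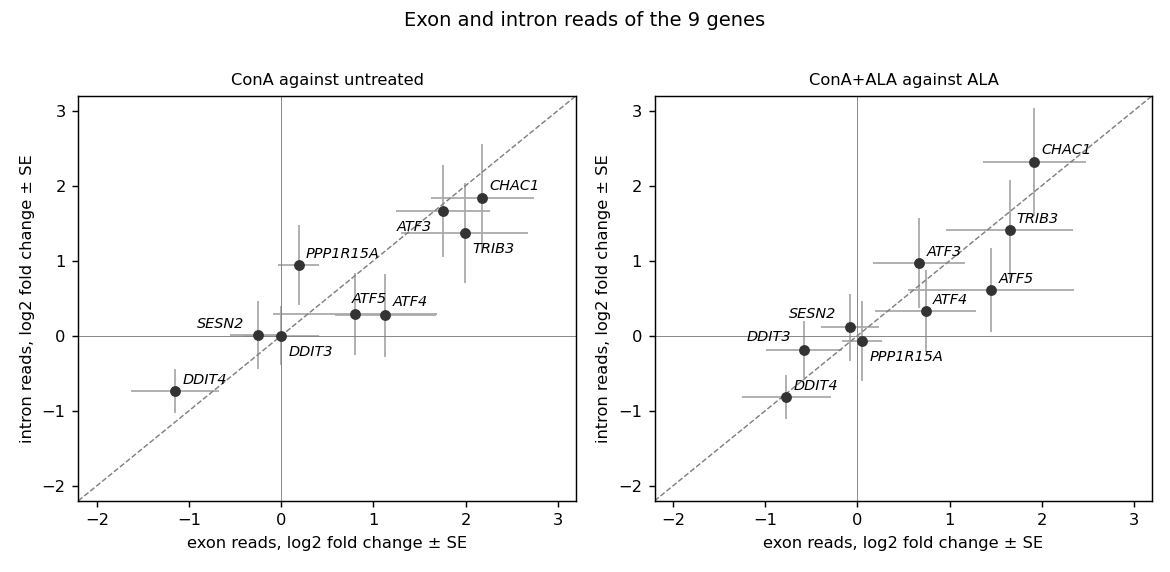
Log2 fold changes of exon reads (horizontal) and intron reads (vertical) of the 9 genes, with SE, in ConA against untreated cells and in ConA+ALA against ALA cells. The dashed line marks equal values. In ConA against untreated cells ATF3 and CHAC1 lie near it, at 1.76 and 1.66 and at 2.18 and 1.84. ATF4 lies below it at 1.13 and 0.27, and PPP1R15A above it at 0.19 and 0.94.

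Profiles over the 12 libraries were compared by the root mean square difference of log2 CPM after centring each gene, a description with no test in which all points share their libraries. Among the 9 genes SESN2 and PPP1R15A were closest (0.279) and DDIT4 and TRIB3 farthest apart (1.88). Over all genes with a symbol, ATF4 was nearest to SEC61G (0.14) and DOC2A (0.16), ATF3 to ATP1B1 (0.186) and PRMT3 (0.301), and CHAC1 to DCTPP1 (0.314) and EZH2 (0.341). The spread of these members themselves was 0.815, 0.882 and 1.18. DDIT3 was nearest to STMN1 (0.202) and MGAT4A (0.217), and DDIT4 to RSRP1 (0.198) and GSTA4 (0.282). TRIB3 (STX1A 0.573, IKZF4 0.576) and ATF5 (ZAR1L 0.541, TCTN3 0.544) had the largest differences from their nearest genes, beside a spread of their own of 1.23 and 0.866. SESN2 (CD2AP 0.128, ARFGAP2 0.139) and PPP1R15A (PTPMT1 0.102, FBXO7 0.116) had the smallest, beside the smallest spreads of the 9 genes, 0.329 and 0.23.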

How the data were processed

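The authors deposited 1 table per library that holds raw read counts by gene (for exons, introns or the whole gene) and TPM, per the file headers. The submitters' processing notes name CanFam3.1 and bcl2fastq, while neither aligner nor counter is named in any source used here. TPM values served only to describe levels and overlap, and entered no test. The main test took total exon counts to edgeR 4.0.16 (R 4.3.3, TMM, filterByExpr, robust quasi-likelihood F-test, 4 group means over all 12 libraries). Normalised CPM used TMM-scaled library sizes, and differences within numbers a prior count of 2. Simulated counts were used to check the scripts.

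Same-numbered libraries deviated together, with all 18 correlations above 0.1 (0.376 to 0.748, deviations from group means), other pairs between groups at -0.498 to 0.206. The pairing comes from the numbers in the titles and this check. The biological coefficient of variation was 0.422, and 0.217 with the block.

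The 9 members, 5 pathway lists and 7 marker lists were chosen with earlier results of these data known. Named are all members, the 3 genes of each list with the smallest p per comparison (the text gives some of them), EIF2AK1, ASNS, HSPA5, and the 2 nearest profiles per member. Of the pathway lists GDF15 and STC2 were under the filter and CEBPD, TNFRSF10B, BBC3, CBS, PHGDH, GPT2 and XBP1 had no match by symbol. Alternatives were DESeq2 1.42.0, limma-voom (limma 3.58.1), other size factors, filters and read types, the compared groups only, the block, and each library or number left out. Counts set a precision of their own, and ATF5, TRIB3 and CHAC1 rest on as few as 2, 2 and 15 reads in a library.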

Additional observations from a re-analysis of the deposited data

Results flagged for a closer look

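The difference made by ALA to ATF3 pointed in opposite directions with and without ConA in every library number. With ConA it was -0.74, -0.77 and -1.29 on the log2 scale in numbers 1, 2 and 3. Without ConA it was 0.13, 0.30 and 0.27, and the fold change there was 0.21 ± 0.50, smaller than its SE. ATF3 was picked from the members by this pattern, and no share of all genes with the pattern was computed. The test of the difference itself gave -1.09 ± 0.70 (edgeR unadjusted p = 0.147, adjusted p = 1), so it was not called.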

How the results depend on the processing

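Chosen after seeing the data were the scaling by total exon reads alone and the blocked fits that leave out a number. Member calls in ConA against untreated cells numbered 2, with the block 5, and on intron reads 0. With a library or number left out they were 0 to 3 without the block. In blocked fits that left out a number they were 4 to 5. In ConA+ALA against ALA cells member calls numbered 0, and 6 with the block. DESeq2, limma-voom, total gene reads and a mean of at least 50 reads each gave 1 (CHAC1). Fits that left out a library or number gave 0 to 1 without the block. Blocked fits that left out a number gave 1 to 5. The block changed no other member call than those given. Calls over all genes moved as follows. ConA against untreated cells had 2471 calls, 5676 with the block, 1117 on intron reads, 1614 with the compared groups only and 1499 scaled by total exon reads. With a library or number left out there were 55 to 2467 without the block. Blocked fits that left out a number had 3627 to 5418. ConA+ALA against ALA cells had 1085, with 4022 under the block, 1830 in DESeq2, 232 on intron reads and 381 scaled by total exon reads. The left-out fits had 0 to 1184 without the block and 2096 to 3817 with it. ALA against untreated cells had 0, with 6 under the block and 4 in DESeq2. Their left-out fits had 0 without the block and 0 to 18 with it. ConA+ALA against ConA cells had 0, with 74 under the block, 49 in DESeq2 and 3 with the compared groups only. There were 2 without a filter, on total gene reads or on intron reads. Left-out fits of this comparison had 0 to 6 without the block and 7 to 97 with it. The interaction had 0, with 4 in DESeq2 and 2 on intron reads. Its left-out fits had 0 to 1 without the block and 0 to 14 with it. Of the member fold changes under alternatives 1172 kept their direction and call, 37 became called, 13 lost a call, and 108 that were not called changed sign. Fewer samples remained in each left-out fit. Low depth limits ATF5 and, without ConA, TRIB3 and CHAC1.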

Other observations

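GADD45A, a growth arrest gene outside the 9 members, averaged 89.3 ± 26.1 CPM in ConA+ALA cells, 42.1 ± 18.5 in ConA cells, 179 ± 45.1 in ALA cells and 86.9 ± 48.3 in untreated cells (SD, n = 3 each). With the block it was higher in ConA+ALA than in ConA cells (1.15 ± 0.18, edgeR adjusted p = 0.011) and lower in ConA+ALA than in ALA cells (-1.03 ± 0.18, adjusted p = 0.000558). It was also lower in ConA than in untreated cells with the block (-1.0 ± 0.18, adjusted p = 0.000457), and without the block no comparison of it was called. SLC7A11, the cystine transporter gene, averaged 10.3 ± 4.62 CPM in ConA+ALA cells, 4.98 ± 0.669 in ConA cells, 14.3 ± 6.75 in ALA cells and 6.81 ± 3.29 in untreated cells (SD, n = 3 each), and was called in no comparison.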
